A study of Drosophila sechellia and Drosophila melanogaster and Drosophila simulans with 18 samples.

Results

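The chitin genes described here are the genes whose products make, trim, deacetylate or bind chitin, together with a family of chitinase-like growth factors. They were taken by gene symbol from the tables of a study of dietary L-DOPA: every symbol that starts with *Cht* or *Idgf* and a digit, with *obst-*, *Peritrophin*, *ChLD* or *Cda*, and the symbols *Gasp*, *kkv*, *Chs2* or *CS-2*, *mmy*, *serp* and *verm*. The *D. melanogaster* table held 37 such genes among 17649, the *D. simulans* table held 2 among 15372, and the *D. sechellia* table held 0 among 17273. The tables of *D. simulans* and *D. sechellia* mostly use numbered symbols (14820 and 16284 of their genes), so chitin genes under numbered symbols were not analysed here.

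Whole adult females of *D. melanogaster* (strain 14021-0231.36), *D. simulans* (14021-0251.195) and *D. sechellia* (14021-0428.25) were collected 0 to 3 days after eclosion and kept for 24 hr either on food with L-DOPA at 10 mg/ml or on control food without it. RNA came from 10 whole flies per library, with 3 libraries for each food and species and 18 in all, and all flies had been reared at 20° under 16 hr of light and 8 hr of dark. Each species was represented by 1 strain. The deposited tables hold, for each gene, 1 FPKM value per food (read fragments scaled to transcript length and library size), which the authors had already combined over the 3 libraries. Such values give no SD and allow no test, and the depth behind a single value is not in the tables, so every difference below is a description of combined values without a replicate check.

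Chitin is a polymer of N-acetylglucosamine that stiffens the cuticle, lines the tracheal tubes and forms, with glycoproteins, the peritrophic matrix that separates food from the gut wall. Membrane-bound chitin synthases build the chains from UDP-N-acetylglucosamine, deacetylases and chitin-binding proteins organise them into a matrix, and chitinases cut them when the matrix is replaced. L-DOPA is a precursor of dopamine, from which insects also make the compounds that tan and harden the cuticle. In whole flies, fewer cells of a type and less RNA per cell cannot be told apart.

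Of the 37 genes in *D. melanogaster*, 27 reached an FPKM of 1 on one or both foods, and their changes on L-DOPA were small. Only 1 of them, the chitin synthase gene *kkv*, was at least 1.5-fold higher on L-DOPA, where 3.35% of the 10490 genes that passed the same minimum were. None was at least 1.5-fold lower, where 2.25% of those genes were. A smaller rise, of at least 25%, was found for 6 of the 27 (*kkv*, *Cht7*, *Peritrophin-A*, *Gasp*, *serp* and *verm*), against 7.01% of all genes, and a fall of at least 20% for 1 (*Idgf1*), against 5.19% of all genes. The median log2 change of the 27 genes, L-DOPA over control, was 0.17, and that of all genes was 0.00. A change above 0 was found for 19 of the 27 genes, against 50.9% of all genes. *kkv*, counted in each of these rises, passed the minimum only through its L-DOPA value.

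Each change was also placed among the changes of other genes with a mean FPKM up to 2-fold above or below the member's own, since low values scatter more than high ones. The changes of 12 of the 27 genes were above those of at least 90% of genes of similar level, a place held by 10.2% of all genes, and those of 2 were below at least 90%, a place held by 10.1% of all genes. *kkv*, which passed the minimum only through its L-DOPA value, was among the 12. Only *Idgf1* lay outside the central 95% of genes of similar level. These places are descriptions and not p-values, and genes expressed in the same cells are not independent of each other.

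**Figure D1:**
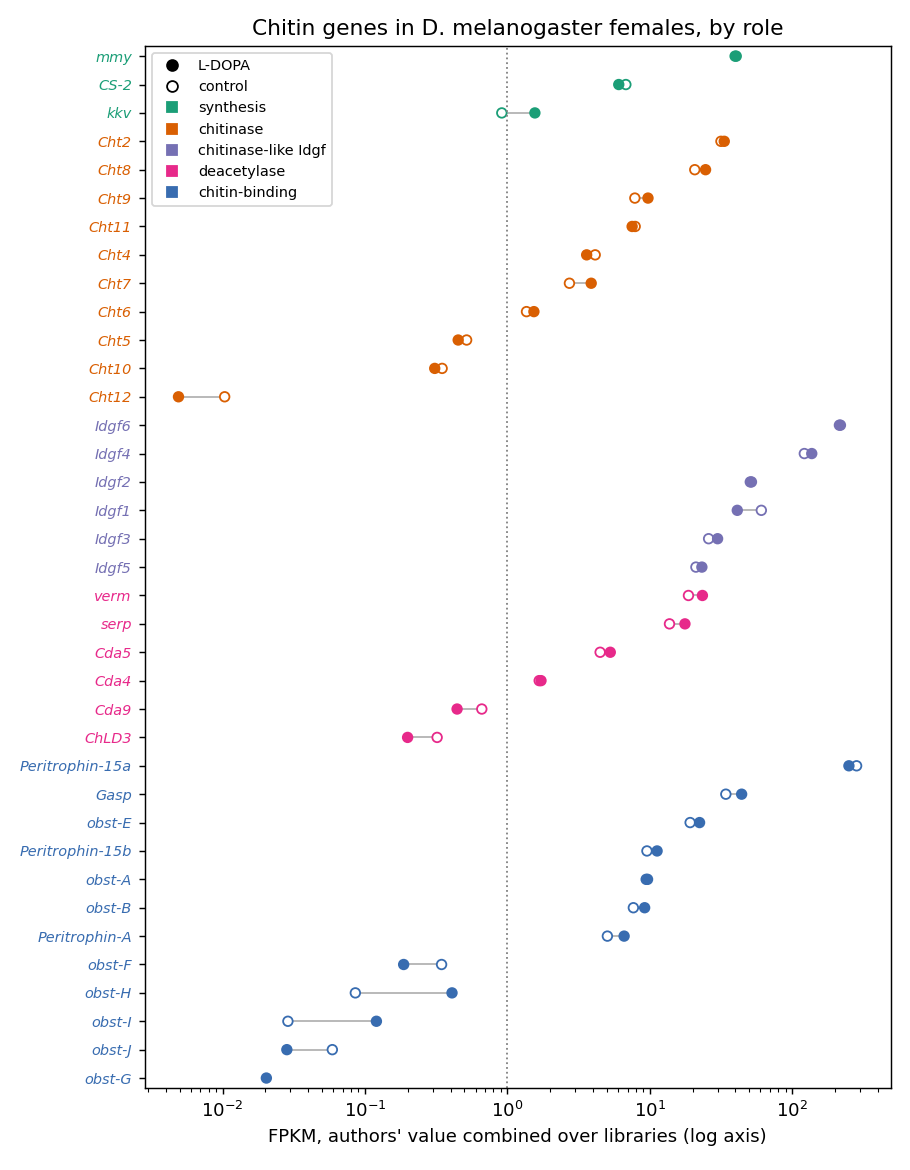
FPKM of the 37 chitin genes of *D. melanogaster* (log axis, authors' values combined over libraries), grouped by role and ordered by mean level within each role, with L-DOPA as filled and control as open points. The dotted line marks an FPKM of 1, the control value of *obst-G* is listed at 0 and is not drawn, and *Peritrophin-15a* and *Idgf6* stand above 200 FPKM while 10 genes stay below 1 on both foods.

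**Figure D2:**
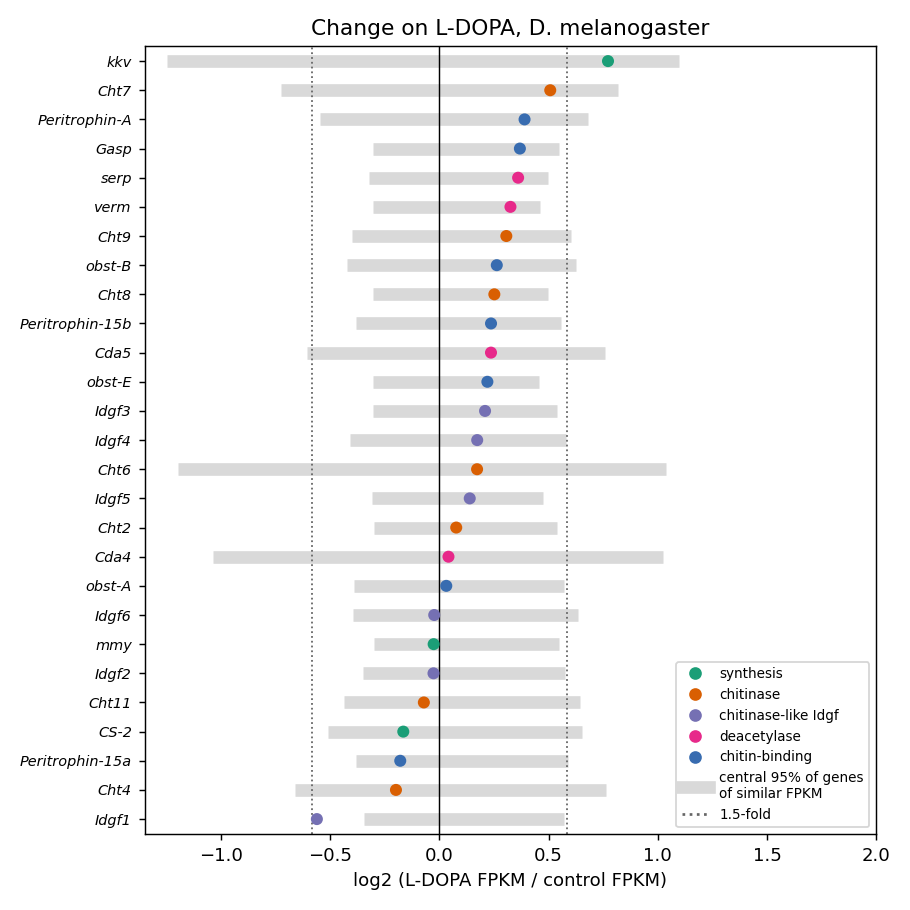
Log2 change, L-DOPA over control, of the 27 *D. melanogaster* chitin genes that reached an FPKM of 1, ordered by change and coloured by role. Grey bars span the central 95% of genes of similar FPKM and dotted lines mark 1.5-fold. *kkv* is the only point beyond a dotted line and *Idgf1* the only point outside its grey bar.

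The genes of chitin synthesis are *kkv*, which encodes the chitin synthase of cuticle and trachea, *CS-2*, the chitin synthase of the midgut, and *mmy*, which encodes the pyrophosphorylase that makes their substrate UDP-N-acetylglucosamine. *kkv* (FBgn0001311, BDGP6 chromosome 3R from 5378093 to 5392866, up to 12 exons) had an FPKM of 1.56 on L-DOPA and 0.915 on control food, a log2 change of 0.77. It passed the minimum of 1 only through its L-DOPA value, and its change was above that of 94.4% of 1117 genes of similar level, whose central 95% ran from -1.25 to 1.10. With a minimum of 1 FPKM on both foods, set after the data were seen, 0 of 26 chitin genes were 1.5-fold higher, and with a pseudocount of 1 the log2 change of *kkv* was 0.42. *CS-2* (FBgn0029091, 3L from 21962401 to 21969964) moved the other way, with 6.07 FPKM on L-DOPA and 6.80 FPKM on control food and a log2 change of -0.17. *mmy* (FBgn0259749, 2L from 6468538 to 6473904) had 39.8 FPKM on L-DOPA and 40.6 FPKM on control food, a log2 change of -0.03. The midgut synthase therefore stood above the cuticle synthase in FPKM on both foods, and the substrate enzyme stood well above both. *CG14668* and a tRNA gene overlap the span of *kkv*, and reads in the overlap could belong to either gene.

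The chitinases, glycoside hydrolases that cut chitin, were represented by 10 genes, of which 7 passed the minimum. Their median log2 change was 0.17, with 5 above 0 and 2 below. *Cht2* (FBgn0022702) was the most highly expressed, with 33.4 FPKM on L-DOPA and 31.7 FPKM on control food (log2 change 0.08), and held 39.6% of the summed chitinase FPKM on L-DOPA and 41.4% on control food. *Cht8* (FBgn0034580) had 24.7 FPKM on L-DOPA and 20.7 FPKM on control food, a log2 change of 0.25. *Cht9* (FBgn0034582) had 9.73 FPKM on L-DOPA and 7.87 FPKM on control food, a log2 change of 0.31. These changes were above those of 94.1% (*Cht8*) and 93.99% (*Cht9*) of genes of similar level.

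The largest change among the chitinases was that of *Cht7* (FBgn0035398, 3L from 3090985 to 3106958, 8 exons), with 3.89 FPKM on L-DOPA and 2.73 FPKM on control food and a log2 change of 0.51. This was above 93.9% of genes of similar level and inside their central 95%, which ran from -0.72 to 0.82. The span of *Cht7* overlaps 6 tRNA genes, and that of *Cht9* overlaps *CR44703*. *Cht4* (FBgn0022700) was the lowest, with 3.61 FPKM on L-DOPA and 4.14 FPKM on control food, a log2 change of -0.20. *Cht11* (log2 change -0.07) and *Cht6* (0.17) lay between, with mean FPKM of 7.72 and 1.45. The other members, *Cht5*, *Cht10* and *Cht12*, were below 1 FPKM on both foods: *Cht5*, a chitinase of moulting, had 0.452 FPKM on L-DOPA and 0.518 FPKM on control food, and *Cht10* had 0.309 FPKM on L-DOPA and 0.349 FPKM on control food.

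*Cht8*, *Cht12*, *Cht4* and *Cht9* lie next to each other on chromosome 2R between 21061646 and 21069286. Neighbours in this cluster differed widely in level and moved in different directions. *Cht12*, whose end overlaps *Cht8* by 35 bases, had 0.00491 FPKM on L-DOPA and 0.0104 FPKM on control food, while *Cht8* had more than 20 FPKM on both foods. *Cht4* and *Cht9*, which are 904 bases apart, differed in log2 change by -0.51 (*Cht4* minus *Cht9*). Reads of such related genes can be split between them in counting.

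The *Idgf* genes encode imaginal disc growth factors, secreted proteins with the fold of a chitinase that lack its catalytic activity. All 6 passed the minimum, and with a median mean FPKM of 51.2 they were the most highly expressed of the 5 roles. Their summed FPKM was 498 on L-DOPA and 501 on control food, and their median log2 change was 0.06, with 3 above 0 and 3 below. *Idgf6* (FBgn0013763) had 215 FPKM on L-DOPA and 219 FPKM on control food (log2 change -0.02), and *Idgf4* (FBgn0026415) had 138 FPKM on L-DOPA and 122 FPKM on control food (0.17). *Idgf2* (FBgn0020415) had 50.9 FPKM on L-DOPA and 51.9 FPKM on control food, a log2 change of -0.03. *Idgf5* had a log2 change of 0.14 at a mean of 22.2 FPKM.

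*Idgf1* (FBgn0020416, 2L from 16445278 to 16446793, 2 exons) had the lowest change of the 27 genes, with 41.3 FPKM on L-DOPA and 60.9 FPKM on control food. Its log2 change was -0.56, short of the 1.5-fold limit at -0.58, and it was below 98.9% of 2577 genes of similar level, whose central 95% ran from -0.35 to 0.57. *Idgf2* follows it after 536 bases and *Idgf3* (FBgn0020414) follows *Idgf2* after 398 bases. *Idgf3* had 30.0 FPKM on L-DOPA and 26.0 FPKM on control food, a log2 change of 0.21. The ratio of *Idgf1* to *Idgf2* was therefore 0.810 on L-DOPA and 1.17 on control food, so that *Idgf1* stood below its neighbour on L-DOPA and above it on control food. The table gives *Idgf1* and *Idgf2* a common span together with *CG5888* and a snoRNA gene, and reads of the related neighbours could be split between them.

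In *D. simulans*, the table names *Idgf1* and *Idgf3*, which had no change of 1.5-fold in either direction, against 3.06% of 9511 genes that were higher and 2.72% that were lower. *Idgf1* (FBgn0044200) had 35.2 FPKM on L-DOPA and 36.3 FPKM on control food, a log2 change of -0.05 that turned to 0.036 when changes were centred on the median gene. *Idgf3* (FBgn0044199) had 42.3 FPKM on L-DOPA and 39.1 FPKM on control food, a log2 change of 0.11. The median change of all genes in *D. simulans* was -0.08, and 35.2% of them were above 0. *Idgf1* was thus above 53.98% and *Idgf3* above 80.8% of *D. simulans* genes of similar level. Between the species, the log2 change of *Idgf1* differed by -0.51 (*D. melanogaster* minus *D. simulans*) and that of *Idgf3* by 0.10. Whether the species differ was not tested, and the tables of the species were normalized separately, so levels were not compared between them.

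**Figure D3:**
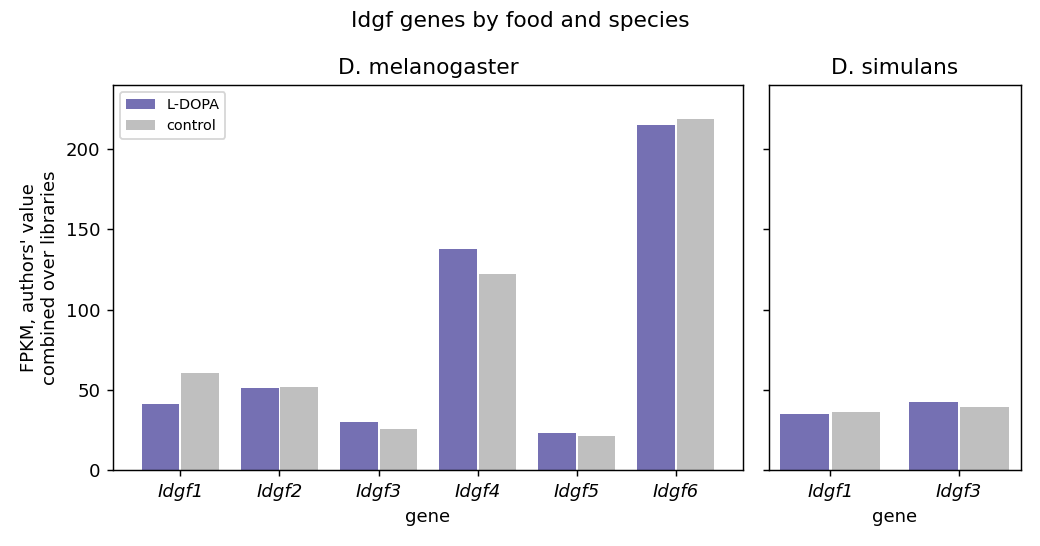
FPKM of the *Idgf* genes (authors' values combined over libraries, with no error bars because the tables hold none) on L-DOPA (violet) and control food (grey), for the 6 genes named in *D. melanogaster* and the 2 named in *D. simulans*. The bars of *Idgf1* in *D. melanogaster* differ most in proportion, at 41.3 on L-DOPA and 60.9 on control food.

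The deacetylase family removes acetyl groups from chitin and so changes how the chains pack and bind protein. Of 6 genes, 4 passed the minimum, and each of these had a change above 0, with a median log2 change of 0.28. Their summed FPKM was 48.2 on L-DOPA and 38.7 on control food, 24.6% higher on L-DOPA and the largest such difference of the 5 roles. *serp* and *verm*, which are needed for the normal length of tracheal tubes in the *D. melanogaster* embryo, are neighbours on chromosome 3L, 5716 bases apart. *serp* (FBgn0260653, 3L from 19700977 to 19708015) had 17.7 FPKM on L-DOPA and 13.8 FPKM on control food, a log2 change of 0.36. *verm* (FBgn0261341, 3L from 19690033 to 19695260) had 23.5 FPKM on L-DOPA and 18.7 FPKM on control food, a log2 change of 0.33.

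The changes of *serp* and *verm* were above those of 96.4% and 95.8% of genes of similar level, and they differed from each other by only -0.04 on the log2 scale (*verm* minus *serp*). The ratio of *verm* to *serp* was 1.33 on L-DOPA and 1.36 on control food, so the pair kept its proportion more closely than the other neighbouring chitin genes that passed the minimum, whose log2 changes differed by 0.24 to 0.53 in size. *Cda5* (FBgn0051973) had 5.29 FPKM on L-DOPA and 4.49 FPKM on control food (log2 change 0.24), and *Cda4* (FBgn0052499) had 1.73 FPKM on L-DOPA and 1.68 FPKM on control food (0.04). *Cda9* had 0.444 FPKM on L-DOPA and 0.662 FPKM on control food, and *ChLD3* had 0.199 FPKM on L-DOPA and 0.322 FPKM on control food, both under the minimum.

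The chitin-binding proteins are the obstructor family, to which *Gasp* and *Peritrophin-A* also belong, and the small *Peritrophin-15* proteins. Of 12 genes, 7 passed the minimum, 6 of these with a change above 0, and their median log2 change was 0.24. *Gasp* (FBgn0026077, 3R from 6088799 to 6100887, 5 exons), which encodes a chitin-binding protein of the tracheal lining and cuticle, had 44.3 FPKM on L-DOPA and 34.3 FPKM on control food. Its log2 change of 0.37 was above 96.2% of 3024 genes of similar level. *obst-E* (FBgn0031737), known for shaping the larval cuticle, had 22.4 FPKM on L-DOPA and 19.2 FPKM on control food, a log2 change of 0.22. *obst-B* (FBgn0027600) had 9.22 FPKM on L-DOPA and 7.68 FPKM on control food, a log2 change of 0.26.

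*Peritrophin-A* (FBgn0022770, X from 20244647 to 20248203) had 6.62 FPKM on L-DOPA and 5.05 FPKM on control food, a log2 change of 0.39. Its neighbour *obst-A* (FBgn0031097), which scaffolds the chitin matrix of the larval cuticle and lies 1437 bases away, had 9.67 FPKM on L-DOPA and 9.46 FPKM on control food, a log2 change of 0.03. Both genes are alone at their place in the table, and the ratio of *obst-A* to *Peritrophin-A* was 1.46 on L-DOPA and 1.87 on control food.

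*Peritrophin-15a* (FBgn0040959, 2L from 8395665 to 8396096, 2 exons) was the most highly expressed of the 37 genes, above 95.2% of all genes that passed the minimum. It had 251 FPKM on L-DOPA and 284 FPKM on control food, a log2 change of -0.18, which was below 90.9% of genes of similar level. It was the only one of the 7 chitin-binding genes with a change below 0, and it held 70.8% of their summed FPKM on L-DOPA and 76.9% on control food. The summed FPKM of these genes was therefore lower on L-DOPA, at 354 against 369 on control food, although 6 of 7 members were higher. *Peritrophin-15b* (FBgn0040958), 724 bases away, had 11.3 FPKM on L-DOPA and 9.57 FPKM on control food, a log2 change of 0.24.

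The remaining chitin-binding genes *obst-F*, *obst-G*, *obst-H*, *obst-I* and *obst-J* were below 1 FPKM on both foods. *obst-H* had 0.409 FPKM on L-DOPA and 0.0857 FPKM on control food, and *obst-I* had 0.120 FPKM on L-DOPA and 0.0288 FPKM on control food, while *obst-G* had 0.0203 FPKM on L-DOPA and is listed at 0 on control food. *obst-F* and *obst-J* were lower on L-DOPA, with 0.187 and 0.0283 FPKM on L-DOPA and 0.346 and 0.059 FPKM on control food. Across all 10 genes under the minimum, the highest value was 0.662 FPKM, and 3 were higher and 7 lower on L-DOPA. The matching shares of all genes under the minimum were not computed, so these counts have nothing to be set against. At such levels the number of reads behind a value is unknown, and no fold was read from them.

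**Figure D4:**
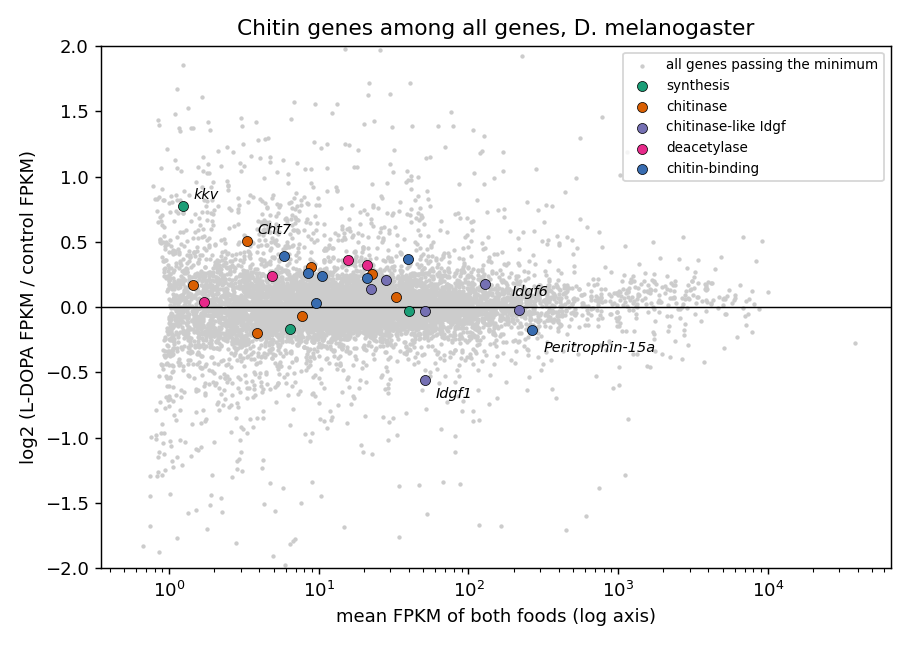
Log2 change, L-DOPA over control, against the mean FPKM of both foods (log axis) for the 10490 *D. melanogaster* genes that passed the minimum (grey) and the 27 chitin genes (coloured by role). The vertical axis ends at 2 in both directions, which leaves out 50 grey points. All chitin genes but *Idgf1* (-0.56) lie within the central 95% of genes of similar level, *kkv* (0.77) among them.

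Set together, the summed FPKM of the 27 genes was 1033 on both foods (ratio 0.999), although 19 of them were higher on L-DOPA. *Peritrophin-15a*, *Idgf1* and *Idgf6* differed by -33.2, -19.6 and -3.56 FPKM, L-DOPA minus control, and *Idgf4* and *Gasp* by 15.6 and 9.98 FPKM. The 37 genes overlap other genes of the table in 17 cases. Among the 15 genes that passed the minimum and were alone at their locus, 10 had a change above 0 and the median log2 change was 0.14. Of the 15, 4 were at least 25% higher (*Peritrophin-A*, *Gasp*, *serp* and *verm*). Of all genes that passed, 50.9% were above 0 and 7.01% at least 25% higher. These shares include genes that overlap others, and shares for genes alone at their locus were not computed.

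Other genes of the pathway were taken from lists. The 5 genes found of a list for the supply of UDP-N-acetylglucosamine had a median log2 change of 0.01 (range -0.22 for *Gfat2* to 0.21 for *nst*), with 0 genes past 1.5-fold. The 3 hexosaminidase genes *Hexo1*, *Hexo2* and *fdl*, whose products finish the breakdown of chitin fragments, ranged from -0.04 to 0.07. Of 10 genes for chitin secretion and matrix assembly, 7 passed the minimum, with a median log2 change of 0.19, 5 above 0 and 0 past 1.5-fold. Their changes ranged from -0.28 for *rtv* (4.41 FPKM on L-DOPA and 5.34 FPKM on control food) to 0.32 for *exp*. *exp* had 2.40 FPKM on L-DOPA and 1.92 FPKM on control food. *reb*, of the same list, had 1.33 FPKM on L-DOPA and 1.28 FPKM on control food, a log2 change of 0.05.

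The mucin and mucin-related genes, which encode glycosylated proteins of surfaces and matrices, went the other way for the most part. Of 20 genes, 9 passed the minimum, 7 of them with a change below 0, against 49.1% of all genes, and their median log2 change was -0.23. *Mur18B* was the exception past 1.5-fold, with 1600 FPKM on L-DOPA and 701 FPKM on control food (log2 change 1.19), and *Muc4B* was at least 1.5-fold lower, with 14.6 FPKM on L-DOPA and 22.5 FPKM on control food (-0.62). In a list of genes of cuticle tanning and hardening and of the hormones of eclosion, 9 of 11 passed the minimum. Their median log2 change was 0.06, with 5 above 0 and 4 below. *Ddc* (0.14) and *ple* (0.13), whose enzymes make dopamine and its precursor, were short of 1.5-fold but above the upper quartile of all genes (0.10). The tanning genes *laccase2* (0.06), *e* (-0.03) and *t* (-0.14) of the same list were below that quartile. *Pburs*, a subunit of the tanning hormone bursicon, had 1.36 FPKM on L-DOPA and 0.586 FPKM on control food (log2 change 1.21). It passed the minimum only through its L-DOPA value. Neither of the hormone genes *CCAP* and *Eh* was past 1.5-fold, with 4.31 FPKM on L-DOPA and 6.43 FPKM on control food for *CCAP* (log2 change -0.58) and 2.70 FPKM on L-DOPA and 3.54 FPKM on control food for *Eh* (-0.39).

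Among the marker lists of other tissues in *D. melanogaster*, that of the follicle cells had the median change farthest from 0 (-0.61). All 16 follicle cell eggshell genes were lower on L-DOPA, with log2 changes from -1.60 (*Cp18*) and -1.38 (*Cp16*) to -0.19, 9 of them at least 1.5-fold, and a summed FPKM of 12795 on L-DOPA and 19016 on control food. Of 13 midgut genes above the minimum, 5 were above 0 and 8 below (median -0.12), with *Mal-A1* (0.99) and *Jon99Ci* (0.69) past 1.5-fold. Of 10 germline genes, 3 were above 0 and 7 below (median -0.15). None of the germline or haemocyte genes was past 1.5-fold, and haemocyte genes had a median of 0.03 (4 above and 3 below 0). Fat body genes had a median of -0.01, with *Fbp1* (1.55) and *Fbp2* (1.38) the only ones past 1.5-fold. None of 9 genes of male reproductive tissue passed the minimum, with *SP* and *Mst84Da* at 0 on both foods. The part of the follicle cells and other tissues in the changes of the chitin genes was not tested. In *D. simulans*, the lists named past 1.5-fold the midgut genes *Amy-p* (1.90) and *Mal-A1* (1.49) and the fat body gene *Fbp2* (0.59).

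**Figure D5:**
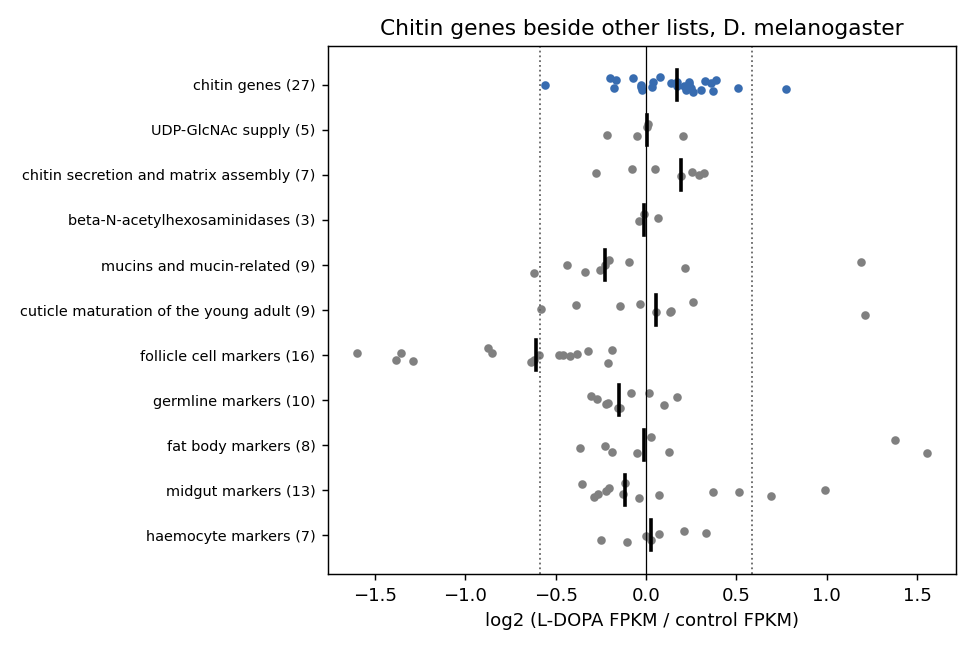
Log2 change, L-DOPA over control, of the *D. melanogaster* genes above the minimum in the chitin set (blue) and in other lists (grey), 1 point per gene with the number of genes in brackets. Black ticks are list medians and dotted lines mark 1.5-fold. The chitin genes have a median of 0.17, the follicle cell markers one of -0.61.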

How the data were processed

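Per the study's methods, the authors used Bowtie2 at its defaults to align each species' reads to its own genome (BDGP6 for *D. melanogaster*). They quantified genes in Cuffdiff, normalizing geometrically and correcting for length. The sample labels instead list BDGP6 for the samples of all species, and the methods were followed here. The methods name Ensembl genome and annotation files for each species. The versions of Bowtie2 and Cuffdiff are not given in the sources used here. In each deposited table the authors give 1 FPKM per gene and food for the 3 libraries together. The tables also hold the authors' own comparison (log2 fold change, test score, p-value and q-value), which was not used. No test across libraries could therefore be run, and mapped reads per library are not in the tables. In the study's own list of mapped reads, in *D. melanogaster* 2 L-DOPA libraries are deeper and 1 is shallower than every control library, and every *D. simulans* L-DOPA library is shallower than every control library.

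Log2 changes, L-DOPA over control, were computed without a pseudocount for genes that reached an FPKM of 1 on one food or both and were at 0 on neither. Genes past 1.5-fold were counted, and each change was ranked among genes with a mean FPKM within 2-fold. Exon counts and positions are from Ensembl release 115 (BDGP6), where all 37 identifiers were found. Of these, 28 start at the same base as in the table, and the others were given the span of overlapping genes.

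The naming rule took the members past 1.5-fold, the 3 with the highest mean FPKM in each role, and those found in *D. simulans*. Members outside it were also given values, to account for all 37, and were described with their values in view. From the other lists, the rule took the 2 largest rises and falls past 1.5-fold. It was applied above only in species with members. The *D. sechellia* genes *Mal-A1* (log2 change 1.04) and *Yp2* (-0.78) of those lists were therefore left out there. Further genes of those lists were named after their values were seen. The members and lists were chosen with earlier results of these data known. Alternatives were a fold limit of 2, a lower limit (a rise of 25% or a fall of 20%), pseudocounts of 0.1 and 1, FPKM minimums of 5 and none, centring on the median gene, leaving out overlapping genes and leaving out the *Idgf* genes. A minimum on both foods was added after the data were seen. Counting and ranking were tested on simulated data with the same scatter at every level and planted changes larger than any of the chitin genes. This checked the computation only and gives no error rate for changes of the size seen here. Python 3.11.15, numpy 2.4.6, pandas 2.3.3 and matplotlib 3.10.9 were used.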

Additional observations from a re-analysis of the deposited data

How the results depend on the processing

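In *D. melanogaster*, 1 of 27 chitin genes was at least 1.5-fold higher on L-DOPA (3.35% of all genes). The count turned to 0 of 27 at a limit of 2-fold (1.17% of all genes) and with a pseudocount of 1 (3.08%). It was 0 of 22 with an FPKM minimum of 5 (2.76%). With a minimum of 1 on both foods, chosen after the data were seen, it was 0 of 26 (2.85%). Without genes that overlap others it was 0 of 15, and the share of all genes was not recomputed. It rose to 3 of 36 with no minimum and to 6 of 27 at a limit of 25% (7.01%). The count of lower genes was 0 of 27 (2.25% of all genes) and became 1 of 27 at a limit of 20% (5.19%) and 4 of 36 with no minimum. With no minimum, 7.17% of all genes were higher and 7.20% lower. A pseudocount of 1 gave *kkv* a log2 change of 0.42 and *Cht7* one of 0.39, since it shrinks the changes of low genes. The median log2 change of the set ranged from 0.11 with no minimum to 0.24 without the *Idgf* genes. In *D. simulans*, centring on the median gene gave *Idgf1* a change of 0.036, a change of sign, and moved the median of *Idgf1* and *Idgf3* to 0.11. The other 84 of 87 single-gene values stayed within 0.1 of their log2 change and kept its sign. For *D. sechellia* no alternative could be computed, since no member was found. No paired analysis was possible because the tables hold values combined over libraries, and for the same reason no library could be left out. A test of any change would need values per library.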
